A study of Homo sapiens with 6 samples.

Results

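Transcripts of 9 genes for membrane-bound proteases of the ADAM family and for their inhibitors, the TIMPs, were examined in OCI-AML2 cells, an established human line that derives from an acute myeloid leukaemia. The genes were ADAM8, ADAM9, ADAM10, ADAM15, ADAM17, ADAM19, ADAM28, TIMP1 and TIMP2. They were chosen by gene symbol, and all 9 were found among the 55765 genes of the deposited count table. The choice was made with the fold changes of these libraries already known, ADAM28 being among the most changed genes. Counts over the 9 genes are therefore a description, while each p-value was adjusted over all tested genes. Cells had received 100 nM MRT199665, which the labels call a MARK inhibitor (MARKs are kinases of microtubule-associated proteins), or vehicle alone, for 48 h. Each group held 3 libraries. Both groups were the same cell line, and the labels describe the cultures as single-cell clones, without saying which clone gave which library. Going by its title, the series belongs to work on MEF2C phosphorylation and resistance to chemotherapy. The question here was whether transcripts of the protease system differed with the inhibitor.

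ADAM proteases are anchored in the plasma membrane and cut the extracellular part of other membrane proteins, a process called shedding. Shedding releases cytokines, growth factors and adhesion molecules from the cell, and ends the signalling of receptors that are cut. TIMPs are small secreted proteins that block the zinc-dependent active site of matrix metalloproteases (MMPs) and of some ADAMs. On myeloid cells this system is known for the release of tumour necrosis factor and of soluble cytokine receptors and for the trimming of adhesion molecules.

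Total counts ranged from 5871097 to 14308650 per library with MRT199665 and from 9517907 to 11994657 with vehicle. Levels are given as CPM, the reads of a gene relative to the library total, with totals scaled by TMM, a correction for differences in library composition. Where no read was found, up to 3 reads remain possible, which is 0.213 to 0.507 CPM depending on the library and covers counting error only. The libraries were made from the 3′ ends of messenger RNAs. MRT199665 replicate 2 was the shallowest library and stood apart on the first principal component, at 48.4, with vehicle replicate 2 at the opposite end at -36.8 and the other libraries between -18.0 and 10.6. That component held 46.8% of the variance of log2 CPM. Of 8 myeloid marker genes, 7 were tested and none was called (adjusted p under 0.05), CEBPA was at 0 in all libraries, and the summed level was 351 to 381 CPM with MRT199665 and 274 to 303 CPM with vehicle. The summed markers of T and NK cells were at 62.7 to 73.0 CPM against 72.2 to 78.0 CPM, of which only NCAM1 was tested, with CD2 at 0. Those of epithelium were at 27.7 to 55.2 CPM against 30.8 to 62.9 CPM, of which only CDH1 was tested. The B cell markers summed to 5.36 to 6.76 CPM against 6.29 to 7.98 CPM, the megakaryocyte markers to 2.27 to 5.07 CPM against 1.59 to 3.09 CPM, and the fibroblast markers to 2.84 to 5.58 CPM against 2.66 to 3.05 CPM. MS4A1, PF4, COL3A1 and KRT19 were at 0 in all libraries. The 4 erythroid markers had no count in any library, and the endothelial markers, with KDR at 0, summed to 0.213 to 0.845 CPM against 0.419 to 0.772 CPM.

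With MRT199665, 3 of the 9 genes rose: the protease gene ADAM28 and the inhibitor genes TIMP1 and TIMP2. Of the 6 tested ADAM genes 1 rose, and both tested TIMP genes did. Of the 9 genes, 8 passed the low-count filter and ADAM19 did not. A gene was called at a Benjamini-Hochberg adjusted p under 0.05 in edgeR's quasi-likelihood test. By that rule 1.25% of all 13053 tested genes were called, 0.85% as higher and 0.398% as lower. None of the 8 was called lower, none had an unadjusted p under 0.05 with a negative change, and DESeq2 and limma-voom also called 3 higher and none lower. The libraries of the groups did not overlap for 3 of the 8, all higher with MRT199665, as for 11.4% of all tested genes in that direction and 10.8% in the other. The median log2 fold change was 0.53 over the 8 and 0.01 over all tested genes. Because the samples are bulk RNA, a change in the RNA of each cell and a change in how many cells carry the RNA cannot be told apart.

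**Figure D1:**
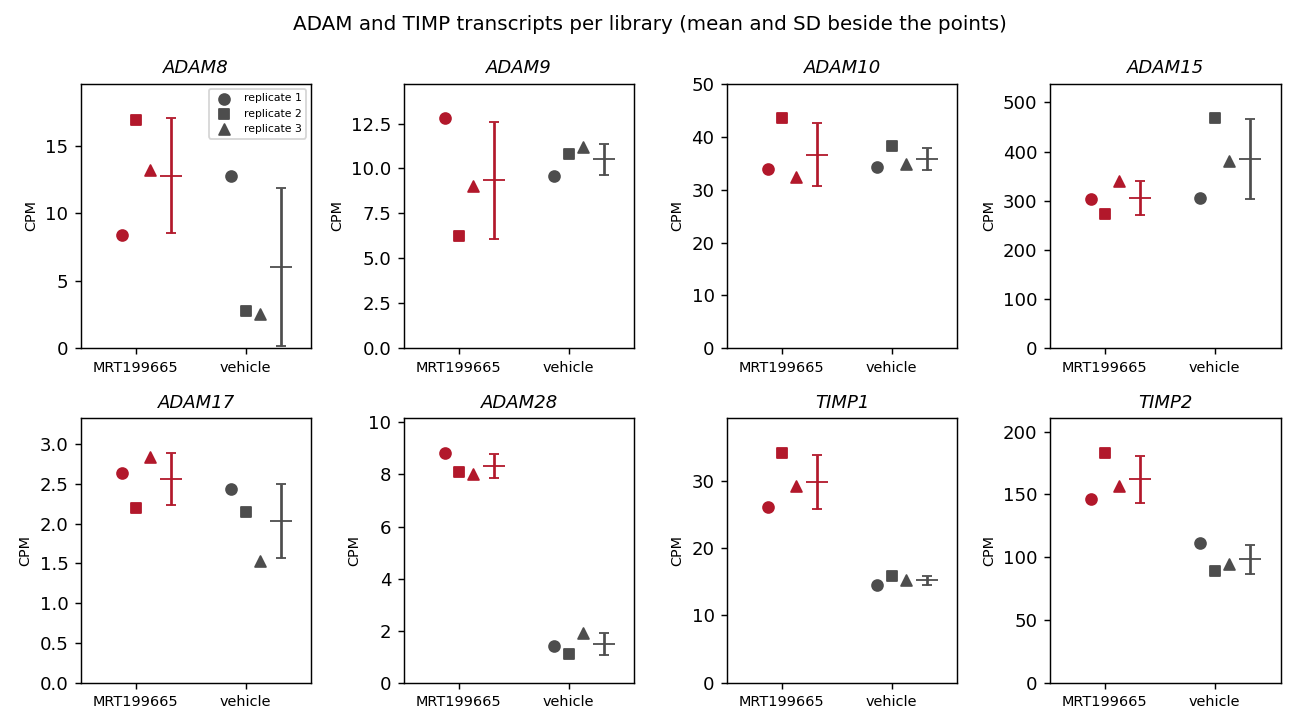
Level of each tested gene in each library, in CPM on linear axes that start at 0, with MRT199665 on the left (red) and vehicle on the right (grey). Symbols mark the replicate number, and the bar beside the points is the mean with its SD (n = 3 per group). For ADAM28, TIMP1 and TIMP2 the groups do not overlap; for ADAM8 vehicle replicate 1, at 12.8 CPM, lies among the MRT199665 libraries.

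ADAM28 is a protease expressed by leukocytes that can cleave insulin-like growth factor binding protein 3 and bind the integrin of alpha 4 and beta 1 chains. Its level was 8.83, 8.11 and 8.01 CPM in MRT199665 replicates 1, 2 and 3, against 1.43, 1.12 and 1.93 CPM in vehicle replicates 1, 2 and 3. Every treated library lay above every vehicle library, and the treated libraries were close together, with a highest-to-lowest ratio of 1.10 against 1.73 with vehicle. These levels rested on 117, 48 and 113 reads with MRT199665 and on 17, 13 and 19 reads with vehicle, so the vehicle level is the less precise one. The log2 fold change was 2.49 ± 0.24 (SE), with a 95% interval of 1.95 to 3.03 and adjusted p = 0.00242. Of all tested genes, ADAM28 had rank 10 when ordered from the highest log2 fold change down. When any 1 library was left out the log2 fold change stayed between 2.31 and 2.70 and the highest adjusted p was 0.0246, without MRT199665 replicate 3 (range over all 14 alternatives 3.99e-15 to 0.0672). The summed myeloid markers given above were also higher with MRT199665, though by less than ADAM28 and with none of the 7 tested markers called. Their part in the result was not tested. Of the protein-coding genes that follow ADAM28 on its chromosome, ADAMDEC1 had no read in any library and ADAM7 had 1 read in each group.

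ADAM8, a leukocyte protease that is induced on activated myeloid cells and can shed L-selectin and its ligand PSGL-1, varied more among the vehicle libraries than any other tested member. Its level was 8.38, 16.9 and 13.2 CPM in MRT199665 replicates 1, 2 and 3, against 12.8, 2.75 and 2.54 CPM in vehicle replicates 1, 2 and 3. The groups overlapped because vehicle replicate 1 was 5.01 times the lowest vehicle library. Its log2 fold change was 1.05 ± 0.56 (SE), with a 95% interval of -0.24 to 2.33 and adjusted p = 0.441. Without vehicle replicate 1 it was 2.24 with adjusted p = 0.0190, while leaving out both replicates numbered 2 gave 0.46 (adjusted p = 0.722). The range of adjusted p over the 14 alternatives was 0.0003 to 0.763, the lowest without a low-count filter. From highest to lowest, ADAM8 ran MRT199665 replicates 2 and 3, vehicle replicate 1, MRT199665 replicate 1, then vehicle replicates 2 and 3. The first principal component had these libraries at 48.4, 6.23, 10.6, -10.4, -36.8 and -18.0, in the order just given. The part of that component in the ADAM8 values was not tested. The gene with the most similar pattern, sought after this spread had been seen, was MYL5, a myosin light chain gene. MYL5 had 7, 12 and 13 reads in MRT199665 replicates 1, 2 and 3, against 11, 2 and 1 reads in vehicle replicates 1, 2 and 3. Vehicle replicate 1 was again among the treated libraries, at very few reads. MYL5 was followed by the ribosomal pseudogene RPL24P4 and by the cathepsin gene CTSF.

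ADAM10 and ADAM17 are the best-studied shedding proteases. ADAM10 makes the first cut of Notch receptors at the cell surface, and ADAM17, also called TACE, releases tumour necrosis factor and ligands of the epidermal growth factor receptor. ADAM10 was at 34, 43.6 and 32.5 CPM in MRT199665 replicates 1, 2 and 3, against 34.4, 38.3 and 34.9 CPM in vehicle replicates 1, 2 and 3. The groups overlapped, and the highest library was MRT199665 replicate 2. For ADAM10 the log2 fold change was 0.03 ± 0.14 (SE), with a 95% interval of -0.30 to 0.35 (adjusted p = 0.965), so changes of ADAM10 beyond those bounds lay outside the interval. Its sign changed to -0.11 without MRT199665 replicate 2, to -0.01 without vehicle replicate 1 and to -0.06 without both replicates numbered 2.

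ADAM17 had 35, 13 and 40 reads in MRT199665 replicates 1, 2 and 3, against 29, 25 and 15 reads in vehicle replicates 1, 2 and 3. That came to 2.64, 2.20 and 2.84 CPM with MRT199665 and 2.43, 2.14 and 1.53 CPM with vehicle. The groups overlapped. The estimate for ADAM17, as a log2 fold change, was 0.34 ± 0.27 (SE), with a 95% interval of -0.27 to 0.95 (adjusted p = 0.617). Changes within this interval were not told from 0.

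ADAM9, a widely expressed shedding protease, was at 12.8, 6.25 and 9.0 CPM in MRT199665 replicates 1, 2 and 3, against 9.56, 10.8 and 11.2 CPM in vehicle replicates 1, 2 and 3. Both the highest and the lowest library were treated ones, so the groups overlapped completely. Its log2 fold change was -0.14 ± 0.24 (SE), with a 95% interval of -0.68 to 0.40 (adjusted p = 0.848), and turned to 0.05 without MRT199665 replicate 2, the lowest library, and to 0.06 without both replicates numbered 2. ADAM15 is an ADAM whose disintegrin domain in humans carries an integrin-binding RGD motif. It was at 303, 272 and 341 CPM in MRT199665 replicates 1, 2 and 3, against 306, 468 and 381 CPM in vehicle replicates 1, 2 and 3. Vehicle replicate 2 was highest and vehicle replicate 1 lay among the treated libraries. The log2 fold change of ADAM15 was -0.34 ± 0.17 (SE), with a 95% interval of -0.72 to 0.05 (adjusted p = 0.408), and was -0.18 without vehicle replicate 2 and -0.10 without both replicates numbered 2. It was not called under any of the 14 alternatives, nor were ADAM9, ADAM10 and ADAM17.

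ADAM19, known for shedding neuregulin, had 1 read in vehicle replicate 2 and none in the other libraries. It was at or under the detection limit in both groups, so no fold change is given.

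**Figure D2:**
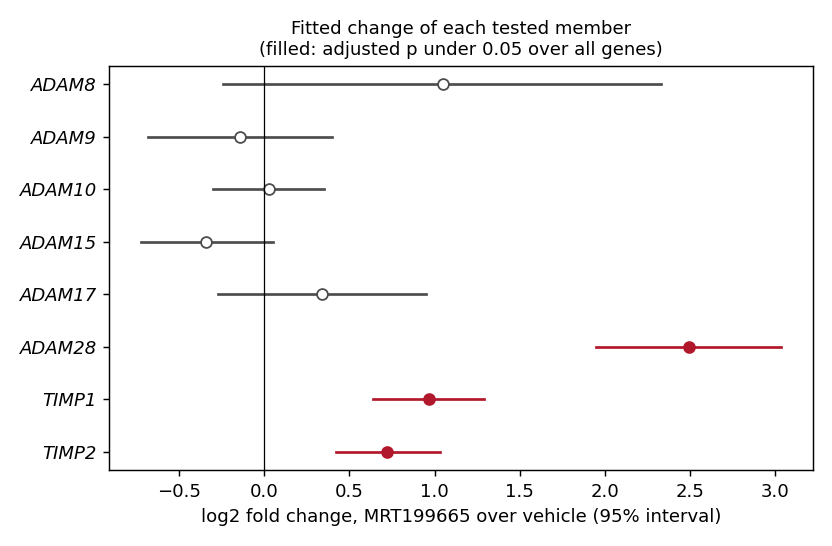
Log2 fold change of MRT199665 over vehicle for each tested gene (points) with its 95% interval (lines). Filled red points are the genes called over all tested genes, ADAM28 at 2.49, TIMP1 at 0.97 and TIMP2 at 0.72; the intervals of the other 5 genes include 0.

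TIMP1 inhibits most MMPs and, among the ADAMs, ADAM10, and it also binds the tetraspanin CD63 at the cell surface. Its level was 26.1, 34.1 and 29.2 CPM in MRT199665 replicates 1, 2 and 3, against 14.5, 15.9 and 15.2 CPM in vehicle replicates 1, 2 and 3. All treated libraries were above all vehicle libraries, and the vehicle libraries were close to each other. Treated libraries averaged 29.8 ± 4.05 CPM and vehicle libraries 15.2 ± 0.680 CPM (SD, n = 3 each). The gene was 1.95-fold higher with MRT199665, with a log2 fold change of 0.97 ± 0.14 (SE), a 95% interval of 0.64 to 1.29 and adjusted p = 0.0162. Adjusted p was 0.0978 when MRT199665 replicate 3 was dropped and 0.12 when vehicle replicate 3 was, which ended the call at a log2 fold change of 0.97 in both cases, and the range over the 14 alternatives was 3.38e-05 to 0.166.

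The human TIMP1 promoter is known for a variant of the binding site of AP-1, the factor formed by JUN and FOS proteins. The 250 bases before the annotated start of TIMP1 are shown because TIMP1 was the called gene for which the promoter table had an entry. They are taken from RefSeq on build GRCh38.p14, at chrX:47582186-47582435 on the + strand. That build is later than the one named for the counts and serves here for sequence only. Capitals mark the AP-1 variant TGAGTAA and GC boxes, here read on the opposite strand, where the motif is GGGCGG.
TIMP1: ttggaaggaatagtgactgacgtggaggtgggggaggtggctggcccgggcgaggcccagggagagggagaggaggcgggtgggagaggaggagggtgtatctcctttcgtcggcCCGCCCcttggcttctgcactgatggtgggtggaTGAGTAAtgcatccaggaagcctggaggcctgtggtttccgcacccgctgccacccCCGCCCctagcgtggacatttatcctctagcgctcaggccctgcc
The AP-1 variant lay between 101 and 95 bases before the start (positions -101 to -95), and the GC boxes lay at -135 to -130 and -45 to -40. On either strand, TGAGTAA was in 2.21% and GGGCGG in 42.6% of the 35116 windows of the same length in the table. Promoter windows of ADAM8, ADAM10, ADAM15, ADAM17 and ADAM19 were also searched, so that 6 of the 9 genes were covered. Of these 6 only TIMP1 held TGAGTAA, and 5 held GGGCGG, ADAM19 being without it. The consensus AP-1 heptamer TGANTCA, in 6.57% of all windows, and the consensus of the MEF2 factors, in 2.8%, were in none of the 6. The motifs searched do not overlap each other in the TIMP1 window, and a match of letters is a description, not a bound site.

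TIMP2 inhibits MMPs and, in a complex with the membrane protease MMP14, takes part in the activation of MMP2. Its level was 146, 183 and 157 CPM in MRT199665 replicates 1, 2 and 3, against 111, 89.4 and 94.2 CPM in vehicle replicates 1, 2 and 3. The groups did not overlap, and the nearest libraries were MRT199665 replicate 1 and vehicle replicate 1. Within each group the libraries had the same order for TIMP2 as on the first principal component. That component was at -10.4, 48.4 and 6.23 in MRT199665 replicates 1, 2 and 3, and at 10.6, -36.8 and -18.0 in vehicle replicates 1, 2 and 3. The part of the component in the TIMP2 values was not tested. Treated libraries averaged 162 ± 18.7 CPM and vehicle libraries 98.3 ± 11.5 CPM (SD, n = 3 each). The gene was 1.65-fold higher with MRT199665, with a log2 fold change of 0.72 ± 0.13 (SE), a 95% interval of 0.42 to 1.03 and adjusted p = 0.0454. That lay close to the threshold, and of the 6 libraries only vehicle replicate 1 could be left out without ending the call (adjusted p = 0.0323 without it). The others gave an adjusted p of 0.0968, 0.0978 and 0.202 without MRT199665 replicates 1, 2 and 3 and of 0.135 and 0.258 without vehicle replicates 2 and 3. The log2 fold change lay between 0.56 and 0.82 over the 14 alternatives, the lowest without both replicates numbered 2 (adjusted p = 0.125), and the adjusted p between 0.00101 and 0.374. TIMP3, the main natural inhibitor of ADAM17, and TIMP4 had no count in any library, which allows up to 0.507 CPM in the shallowest library.

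In GENCODE release 29, used for names only, some of these genes share bases with others. Exons of ADAM17 overlap those of IAH1 on the opposite strand, which had 38 to 156 reads per library, and exons of ADAM19 overlap those of CYFIP2, also on the opposite strand, which had 259 to 804 reads. TIMP1 lies within an intron of SYN1 on the opposite strand (1 to 10 reads), and an exon of TIMP2 overlaps CEP295NL on the same strand, listed under its older symbol DDC8 (1 to 4 reads). Exons of ADAM10, ADAM17 and TIMP2 also overlap those of AC018904.1, AC073195.1 and AC022966.1, in that order, on the opposite strand. These 3 have no counts under those symbols. An exon of ADAM15 overlaps DCST1 on the same strand, which had no read in any library. The strand setting of the counting is not given, so where exons on opposite strands overlap, reads of the pair cannot be told apart. Where exons overlap on the same strand, as for ADAM15 and TIMP2, no strand setting would separate the reads. The called gene TIMP2 thus has overlaps of both kinds. Exons of TIMP1 and SYN1 share no bases in this annotation.

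**Figure D3:**
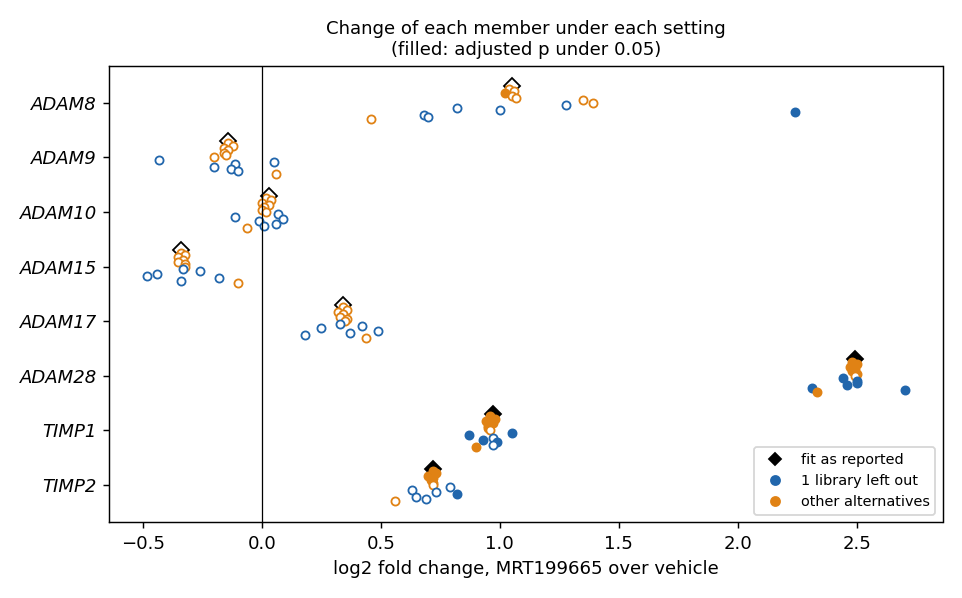
Log2 fold change of MRT199665 over vehicle for each tested gene in the fit as reported (black diamonds), with 1 library left out (blue) and under the other alternatives (orange). Filled symbols have an adjusted p under 0.05. ADAM28 stays between 2.31 and 2.70, ADAM8 spreads from 0.46 to 2.24, and TIMP2 keeps its direction while many of its symbols are open.

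The pattern of each called gene over the 6 libraries was compared with that of all other tested genes, by the root mean square difference of log2 CPM after centring each gene on its mean. Patterns that are high with MRT199665 and low with vehicle are close on this measure, so it describes likeness and is no test. Nearest to ADAM28 were LGALS2, a galectin gene, at 0.23, CSF1R, the receptor gene for macrophage colony-stimulating factor, at 0.27, and the class II gene HLA-DRA at 0.28, where the median over all genes was 1.23. LGALS2 had 65, 27 and 62 reads in MRT199665 replicates 1, 2 and 3, against 9, 5 and 6 reads in vehicle replicates 1, 2 and 3. It rose by 2.93 ± 0.29 on the log2 scale (SE, adjusted p = 0.00242). Nearest to TIMP1 were MPZL1, a cell surface glycoprotein gene, at 0.09, the eosinophil cationic protein gene RNASE3 at 0.10 and the sideroflexin gene SFXN5 at 0.10, where the median was 0.54. RNASE3 was called (log2 fold change 0.93 ± 0.15, SE, adjusted p = 0.0236). MPZL1 and SFXN5 had log2 fold changes of 0.82 and 0.83, with adjusted p of 0.0608 and 0.0549. RNASE3 shares sequence with RNASE2, so its reads are uncertain, and its call was kept only with MRT199665 replicate 1 as the library left out (highest adjusted p 0.157, without MRT199665 replicate 3). Nearest to TIMP2 were DENND2D at 0.05, the myeloid inhibitory receptor gene CD300LF at 0.06 and SUCLA2-AS1 at 0.07, where the median was 0.45. None of these 3 was called, with log2 fold changes of 0.74, 0.67 and 0.67 and adjusted p of 0.0996, 0.0638 and 0.327, against unadjusted p of 0.00254, 0.000994 and 0.0453.

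Other genes of the same protease system were counted in 7 lists, written from general knowledge. Counts of genes with an unadjusted p under 0.05 in these lists stand beside 14.7% of all tested genes that passed that mark. Of 14 other ADAM genes only ADAM11 and ADAM22 passed the filter. ADAM11, which lacks the residues of an active protease site and is known from nervous tissue, was called higher. Its level was 9.29, 9.47 and 7.37 CPM in MRT199665 replicates 1, 2 and 3, against 3.19, 4.46 and 2.14 CPM in vehicle replicates 1, 2 and 3. The groups did not overlap, and the log2 fold change was 1.39 ± 0.27 (SE, adjusted p = 0.0491). Leaving out any library except vehicle replicate 2 ended this call, with adjusted p of 0.156, 0.110 and 0.156 without MRT199665 replicates 1, 2 and 3 and of 0.0927 and 0.187 without vehicle replicates 1 and 3.

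Of 19 genes of the ADAMTS family, secreted relatives of the ADAMs, 6 were tested and none was called by edgeR, DESeq2 or limma-voom, while 2 had an unadjusted p under 0.05. These were ADAMTS5, an aggrecan-degrading enzyme, at 1.20 ± 0.34 on the log2 scale (SE, adjusted p = 0.149), and ADAMTS6 at -0.62 ± 0.26 (SE, adjusted p = 0.312). Of 23 MMP genes and inhibitors 9 were tested, 7 had positive log2 fold changes and 1 was called, MMP25, a membrane-anchored protease of leukocytes. An unadjusted p under 0.05 was found for 4 of the 9, all higher with MRT199665. MMP25 was at 9.36, 11.5 and 9.78 CPM in MRT199665 replicates 1, 2 and 3, against 5.62, 4.46 and 5.09 CPM in vehicle replicates 1, 2 and 3. The groups did not overlap, and the log2 fold change was 1.00 ± 0.18 (SE, adjusted p = 0.0349). MMP25 kept its call only with vehicle replicate 1 as the library left out. Adjusted p was 0.0967, 0.0855 and 0.179 when MRT199665 replicates 1, 2 and 3 were dropped, and 0.112 and 0.192 when vehicle replicates 2 and 3 were. MMP14, the partner of TIMP2, was looked up after the values had been seen. It was at 349, 341 and 361 CPM in MRT199665 replicates 1, 2 and 3, against 228, 307 and 281 CPM in vehicle replicates 1, 2 and 3. Its groups did not overlap, but it was not called, its log2 fold change being 0.36 ± 0.13 (SE, adjusted p = 0.251).

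Of 13 genes whose products mature or carry ADAM10 and ADAM17 to the cell surface, 9 were tested. None was called by edgeR, DESeq2 or limma-voom, and 3 had an unadjusted p under 0.05. Those with the lowest p were the tetraspanin genes TSPAN17 and TSPAN14, whose products bind ADAM10. Their log2 fold changes were 0.57 ± 0.14 (SE, adjusted p = 0.102) for TSPAN17 and -0.39 ± 0.12 (SE, adjusted p = 0.181) for TSPAN14. Of 8 genes of gamma-secretase and related proteases, which cut the membrane stubs that shedding leaves, 7 were tested and none was called by the same tools. An unadjusted p under 0.05 was found for 1 of them. SPPL2B, a signal peptide peptidase-like protease, was not that gene. Its log2 fold change was 0.27 ± 0.15 (SE, unadjusted p = 0.105, adjusted p = 0.452).

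Of 45 genes for proteins that ADAMs shed, 23 were tested, 13 had positive log2 fold changes and the median was 0.06. An unadjusted p under 0.05 was found for 7 of the 23, of which 5 were higher with MRT199665. In this list edgeR and limma-voom each called 1 gene, and DESeq2 called 3. The called gene was CSF1R, whose product is cut by ADAM17. CSF1R was at 44.2, 37.5 and 41.5 CPM in MRT199665 replicates 1, 2 and 3, against 6.80, 9.09 and 8.35 CPM in vehicle replicates 1, 2 and 3. Its groups lay far apart, and its log2 fold change was 2.35 ± 0.15 (SE, adjusted p = 0.000694). The ADAM17 substrate genes TGFA and TNF, with the next highest and the lowest log2 fold change of the list, were picked out after the values had been seen. TGFA, the gene for transforming growth factor alpha, had 29, 21 and 40 reads in MRT199665 replicates 1, 2 and 3, against 4, 12 and 5 reads in vehicle replicates 1, 2 and 3. It missed the threshold, at 2.13 ± 0.41 on the log2 scale (SE, adjusted p = 0.0527), and was called in 5 of 14 alternatives. TNF was at 36.4, 40.6 and 32.4 CPM in MRT199665 replicates 1, 2 and 3, against 41.9, 83.3 and 63.2 CPM in vehicle replicates 1, 2 and 3. Its treated libraries lay below the vehicle libraries, the nearest by a small margin, and the log2 fold change was -0.79 ± 0.23 (SE, adjusted p = 0.160), and it was called in 3 of 14 alternatives.

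Of 10 genes for integrins, tetraspanins and other partners of ADAMs and TIMPs, 7 were tested, 2 had positive log2 fold changes and none was called by edgeR, DESeq2 or limma-voom. An unadjusted p under 0.05 was found for 3. ITGB1, the integrin beta 1 chain, was at -0.57 ± 0.17 on the log2 scale (SE, adjusted p = 0.173). SELPLG, the gene for PSGL-1, was at 204, 303 and 256 CPM in MRT199665 replicates 1, 2 and 3, against 215, 147 and 164 CPM in vehicle replicates 1, 2 and 3. The groups overlapped at vehicle replicate 1, and the log2 fold change of SELPLG was 0.53 ± 0.19 (SE, adjusted p = 0.228). CD63, the cell surface partner of TIMP1 and looked up after the values had been seen, was at 455, 578 and 472 CPM in MRT199665 replicates 1, 2 and 3, against 488, 337 and 346 CPM in vehicle replicates 1, 2 and 3. Vehicle replicate 1 again lay among the treated libraries, and CD63 was not called (log2 fold change 0.36 ± 0.17, SE, adjusted p = 0.381).

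**Figure D4:**
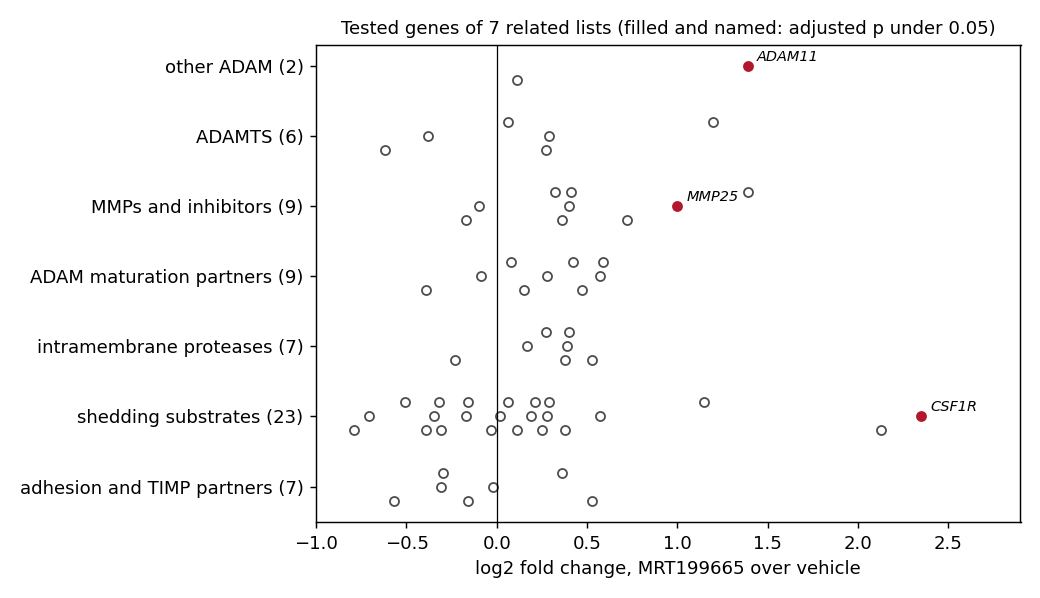
Log2 fold change of MRT199665 over vehicle for each tested gene of 7 lists around the ADAM and TIMP genes, with the number of tested genes in brackets and points spread vertically only for legibility. Filled points are genes called over all tested genes, ADAM11 at 1.39, MMP25 at 1.00 and CSF1R at 2.35.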

How the data were processed

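The deposited table holds counts per gene symbol, made by the authors, which were taken as raw and not normalized. The submitters' processing notes name hg19 as the build, STAR 2.4 and HTSeq 0.6.1 as tools, and also DESeq2. The annotation, strand setting and read filters are not given in the sources used here. Per the labels, a Lexogen 3′ kit was used. Separate cultures are not stated for the replicates. The p-values therefore reflect only how much these libraries vary, and that variation may be technical.

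Counts were fitted with the quasi-likelihood functions glmQLFit and glmQLFTest of edgeR 4.0.16 under R 4.3.3 (TMM, group as the only term) after filterByExpr (minimum count 10, minimum total 15). P-values are two-sided and adjusted over all tested genes. SE is the size of the log2 fold change divided by the square root of F. The script was tested on simulated data. Libraries of a group differed beyond sampling noise (chi-square per degree of freedom at least 9.53), so none was another library deposited again. Each was counted as 1 sample, though this check cannot show that the libraries came from separate cultures. Alternatives were other scalings and filters, DESeq2 1.42.0, limma-voom (limma 3.58.1), the replicate number as a block and left-out libraries. Depth ranged from 5871097 to 14308650 counts. Log2 CPM for pattern likeness and components used a prior count of 2.

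The 9 genes and the lists were chosen with earlier results of these data known. Named were all 9 genes, the called genes of each list or else the 2 with the lowest p, and the 3 genes nearest in pattern to each called gene. ADAM8's neighbours, ADAMDEC1, ADAM7, TIMP3, TIMP4, MMP14, TNF, TGFA and CD63 were added after values were seen. The result of 1 gene that this rule named is not reported here.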

Additional observations from a re-analysis of the deposited data

How the results depend on the processing

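ADAM28, TIMP1 and TIMP2 kept a positive change under all 14 alternatives, and were called in 13, 11 and 7 of them. Without a low-count filter 373 genes were called higher and 271 lower, against 111 and 52 as reported, and DESeq2 called 197 higher and 150 lower. With libraries left out 1 at a time, 29 to 78 genes were called higher and 20 to 55 lower, and 1 to 4 of the 9 genes higher, while the log2 fold change of ADAM9 ran from -0.43 to 0.05 and that of ADAM10 from -0.11 to 0.09. The log2 fold change of ADAM9 turned to 0.05 without MRT199665 replicate 2 and to 0.06 without both replicates numbered 2. That of ADAM10 turned to -0.11 and -0.06 under the same settings and to -0.01 without vehicle replicate 1. The cause was not tested, and none of these values was near the threshold.

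With the replicate number as a block, 7 genes were called higher and 5 lower, and 0 of the 9 genes (adjusted p = 0.0672 for ADAM28, 0.166 for TIMP1 and 0.374 for TIMP2). Same-numbered libraries did not deviate together, with correlations of -0.55, -0.47 and 0.02 for numbers 1, 2 and 3, so the numbers were not taken to pair the libraries. Across numbers, MRT199665 replicate 1 reached 0.53 with vehicle replicate 2, and MRT199665 replicate 2 reached 0.48 with vehicle replicate 1. The other pairs lay between -0.10 and 0.12. Deviations within a group cancel out, so these correlations depend on each other and cannot show that no variation was shared. The depth of the libraries sets the detection limit for genes without reads, up to 0.507 CPM in the shallowest library.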
